A study of Mus musculus with 20 samples.

Results

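The 37 genes described here encode the enzymes that make cholesterol and fatty acids, the proteins that sense sterols, and the proteins that take up, carry and clear lipids. They were taken by symbol, under a rule that reads no measured value, from a list drawn up with earlier results of these data known, out of the 53801 genes in the count tables. All 37 were found by their Ensembl identifier and all 37 passed the filter on low counts, so each was tested. By role, 8 are enzymes of the mevalonate and isoprenoid steps, 12 are enzymes between squalene and cholesterol, 5 are sterol sensors and regulators, 4 make or desaturate fatty acids, and 8 serve uptake, transport and turnover. The 20 synthesis enzymes of the opening pair of groups are set against the 13 regulators and transport genes.

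Cholesterol is built from acetyl-CoA through mevalonate, isoprenoid units and squalene. The genes of the pathway are driven by sterol regulatory element binding proteins (SREBPs), encoded by Srebf1 and Srebf2, which are carried from the endoplasmic reticulum to the Golgi by the escort protein SCAP and are held back by the INSIG proteins when sterols are plentiful. The brain makes its own cholesterol because lipoproteins of the blood do not cross into it. Oligodendrocytes use much of it for myelin, and astrocytes hand it to neurons on particles that hold apolipoprotein E.

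The libraries hold total RNA of mouse hypothalamus after removal of ribosomal RNA, and were made strand-specific and read as pairs. Mice lacking both Necdin (Ndn) and Magel2, named MADIN in the labels and KO here, were compared with C57BL/6J mice (WT). All animals had free access to food and water and lived under a cycle of light and dark. The mice model Prader-Willi syndrome, in which loss of paternally expressed genes disturbs feeding, growth and behaviour. Killing took place 6 h after light on (day) or 18 h after it (night), which gives the groups WT_day, WT_night, KO_day and KO_night with 5 libraries each. Age, sex and the number of animals behind a library are not given in the sources used here, so p-values measure the spread between these samples, which may be technical. The genotype of every library is labelled alike in each field, but title and time field disagree on the time of 6 libraries (KO_night 1, 2 and 3, KO_day 1 and 2, and WT_night 1). Time was taken from the title, except in KO_day 5, whose title carries no time letter. WT_day 5 has a title number that another library already carries.

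Library totals ran from 32066289 to 48697647 counts, and levels are CPM, counts per megacount of the library total, after scaling by the trimmed mean of M-values (TMM). Ndn stood at 239 to 346 CPM in 9 WT libraries and at 0.248 to 1.01 CPM in the 10 KO libraries, and Magel2 at 15.6 to 19.5 CPM and at 0 to 0.182 CPM. At both genes the library labelled WT_day 3 was far below the other WT libraries, against its label, with Ndn at 31.0 CPM (1480 counts) and Magel2 at 2.15 CPM (103 counts), and the results without it are given beside the counts below. The 9 hypothalamic markers (such as Avp, Oxt, Pomc and Hcrt) were all detected. Of the neuron markers, Tubb3, which lies within a gene of its own strand, had 0 counts throughout.

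Per kilobase of exon, Apoe had the highest mean level over the 20 libraries at 505 CPM per kb, followed by Scd2 at 237, Scd1 at 43.1, Hmgcs1 at 33.9 and Insig1 at 25.0. The lowest level per kb of exon was that of Lpl at 0.119, beside Fdps at 0.133, whose counts lack reads for the reason given in the next paragraph. Apoe, Scd2 and Scd1 also led when levels were taken per kb of the whole gene span (350, 98.0 and 15.7 CPM per kb), and Lpl and Fdps were at 0.0463 and 0.0666. These 2 scales are given side by side because the check in the next paragraph shows reads to have been counted over gene spans, introns included. Apoe, which encodes the main apolipoprotein of the brain, therefore stood above every synthesis enzyme on either scale, and lipoprotein lipase (Lpl) rested on 19 to 77 counts per library.

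Several members share their span with another gene, and the strand of the partner decides what that does to their counts. Of protein-coding genes that lie in introns of a same-strand gene, 97.4% had 0 counts (185 of 190), against 11.5% of genes that overlap none. Of those whose exons are covered by exons of an opposite-strand gene, 0 of 35 had 0 counts. Reads were thus separated by strand, and reads in the shared span of same-strand genes went to neither gene. Fdps, the synthase of farnesyl diphosphate, is overlapped over 89.7% of its span by Gm43738 on the same strand, so its mean of 0.558 CPM lacks most of its reads and is no measure of its level. Vps51 overlaps 9.58% of Tm7sf2 on the same strand. Mvd, the decarboxylase of the mevalonate steps (mean 9.47 CPM), lies wholly within Gm20388 on the opposite strand (553 CPM). The check does not measure how many reads were given to the wrong strand, so a share of Gm20388 reads in the Mvd counts was not tested. Opposite-strand genes also overlap 44.1% of Lss, 34.6% of Hmgcs1, 10.8% of Insig2, 10.5% of Npc1, 7.03% of Acaca, 6.55% of Scap and 5.15% of Soat1.

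SREBPs act on promoters together with factors that bind CCAAT boxes and GC boxes, and the promoters of Hmgcs1, Mvk and Fasn are printed because Hmgcs1 holds a sterol regulatory element core while Mvk and Fasn rose in KO. Each is the run of 200 bases before the gene's start in RefSeq (GRCm38.p6), 5′ to 3′ on the gene's strand. Capitals mark CCAAT boxes (CCAAT, or ATTGG where the box lies on the other strand) and, in Hmgcs1, the element core (TCACCCCAC). The Hmgcs1 run lies at chr13:119690151-119690350 on the plus strand, that of Mvk at chr5:114444069-114444268 on the plus strand and that of Fasn at chr11:120824548-120824747 on the minus strand.
Hmgcs1: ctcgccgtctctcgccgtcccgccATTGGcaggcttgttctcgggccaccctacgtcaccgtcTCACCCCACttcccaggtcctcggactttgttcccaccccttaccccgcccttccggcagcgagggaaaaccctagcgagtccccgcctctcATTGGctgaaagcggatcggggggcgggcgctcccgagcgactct
Mvk: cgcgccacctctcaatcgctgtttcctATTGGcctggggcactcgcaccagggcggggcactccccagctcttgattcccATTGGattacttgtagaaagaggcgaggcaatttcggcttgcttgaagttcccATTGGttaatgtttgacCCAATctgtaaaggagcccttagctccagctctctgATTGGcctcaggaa
Fasn: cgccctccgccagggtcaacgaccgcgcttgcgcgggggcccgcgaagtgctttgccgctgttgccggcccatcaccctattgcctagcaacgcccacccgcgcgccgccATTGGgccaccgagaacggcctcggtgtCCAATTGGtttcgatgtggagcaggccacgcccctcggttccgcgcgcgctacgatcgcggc

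Mvk holds 5 CCAAT boxes in this window, Hmgcs1 holds 2 and Fasn holds 3, of which 2 overlap in the run CCAATTGG. RefSeq windows of 300 bases (250 before to 50 after the start) were given for 29 of the 37 members, and not for Fdps, Fdft1, Sqle, Scd1, Scd2, Lpl, Stard4 and Npc1. Searched on both strands, a CCAAT box stood in 24 of these 29 members (82.8%) and in 16 of 17 synthesis enzymes, against 41.1% of 27025 genes. The GC box (GGGCGG) stood in 24 of 29 members, against 38.2% of genes. The E-box (CACGTG) stood in 6 of 29 (20.7%), against 8.1%, and the sterol regulatory element core (TCACNCCAC) in 1 of 29, which was Hmgcs1, against 1.4%. The genes compared are all those with a RefSeq window, whether or not they were detected here, whereas every member passed the low-count filter. Whether the members differ from other detected genes was not tested. These matches describe the letters of the windows and not the binding of a factor.

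How the deletion changed the 37 genes was asked by day, at night and as the average of both times. Averaged over both times, 2 of 37 members rose and none fell: Fasn, the fatty acid synthase, and Srebf1. Of all 22181 genes tested, 1.32% were called in this comparison and 0.793% rose. By day only Fasn rose, where 0.113% of all genes were called and 0.0631% rose. At night 5 members rose and none fell, namely Fasn, the SREBP escort Scap, mevalonate kinase Mvk, Apoe and Lpl. Here 11.9% of all genes were called, of which those that rose make up 5.18% of all genes, so 5 of 37 is close to the share called in either direction. Calls are those of edgeR's quasi-likelihood test with Benjamini-Hochberg adjustment over all genes tested (threshold 0.05), and changes are log2 values with their standard errors. In whole tissue, more cells of a type and more RNA per cell cannot be told apart.

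Most of the other members were slightly higher in KO without passing. Averaged over both times 29 of 37 members were higher in KO, with a median change of 0.074, while 49.5% of all genes tested were higher and their median was -0.001. By day 29 of 37 were higher with a median of 0.058, beside 47.8% of all genes and a median of -0.006. At night 33 of 37 were higher with a median of 0.102, beside 51.0% and 0.005. The 3 comparisons share libraries and are not independent of each other. At an unadjusted p under 0.05 there were 15 members in the averaged comparison, 8 by day and 15 at night, beside 19.6%, 9.62% and 29.9% of all genes. Nsdhl and Acaca were on the lower side among the 15 at night, and DESeq2 called 7, 2 and 7 members in the 3 comparisons, beside 4.72%, 0.857% and 15.9% of all genes.

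**Figure D1:**
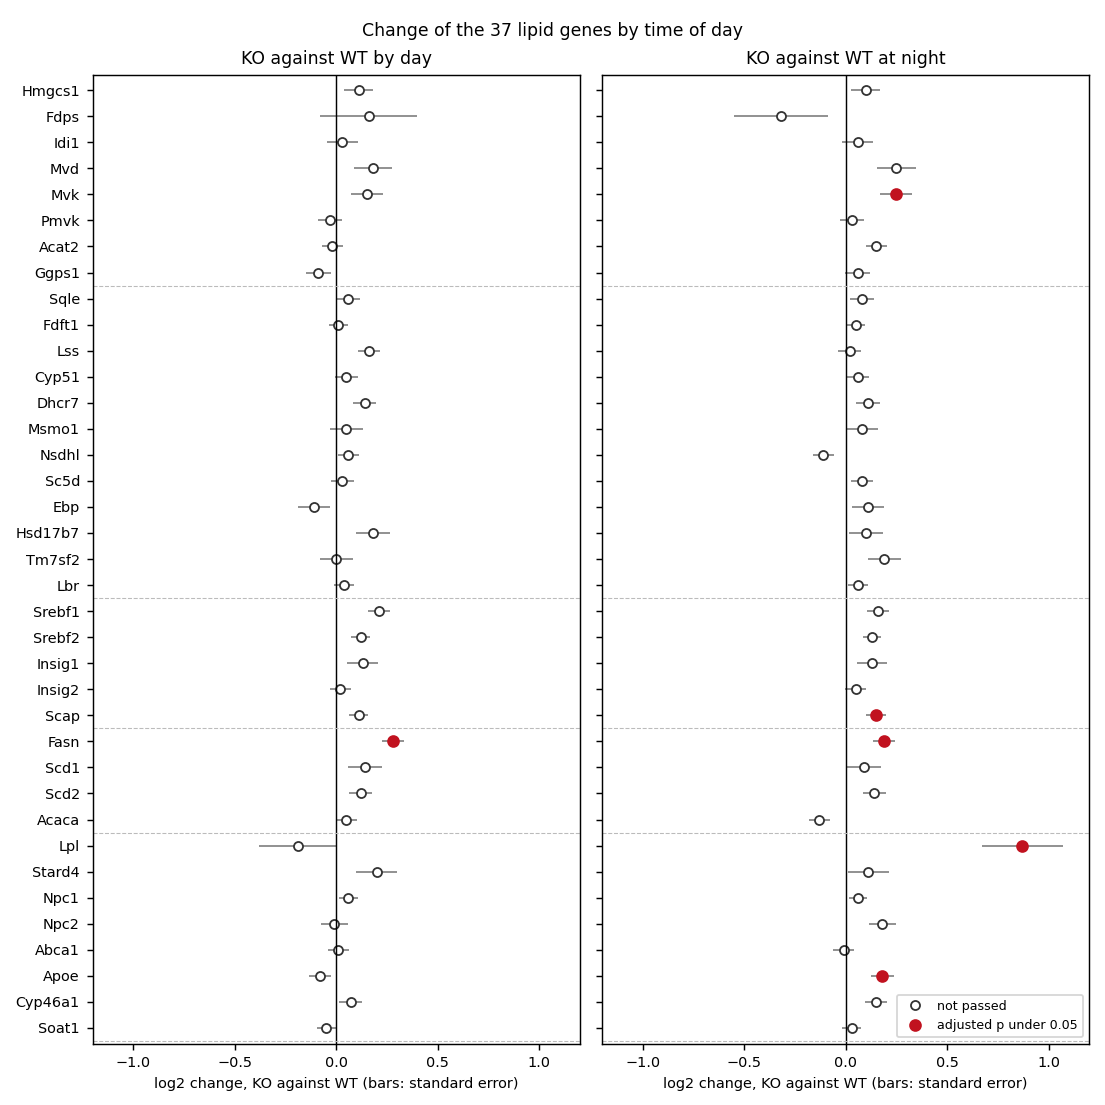
Log2 change of each of the 37 genes in KO against WT by day (left) and at night (right), with standard errors, ordered by role from the mevalonate enzymes at the top to the transport genes at the bottom. Filled points passed at an adjusted p under 0.05: Fasn on both sides, and Mvk, Scap, Lpl and Apoe at night, while most open points sit to the right of 0.

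By role, the median change of the synthesis enzymes was below that of the regulators and transport genes in the averaged and night comparisons and nearly equal to it by day. Of 20 enzymes, 15 were higher in KO in the averaged comparison with a median change of 0.059, and none passed. Of the 13 regulators and transport genes, 11 were higher with a median of 0.109, and 1 (Srebf1) rose. By day 16 of 20 enzymes and 9 of 13 regulators and transport genes were higher, with medians of 0.051 and 0.058 and no call in either. At night 18 of 20 and 12 of 13 were higher, with medians of 0.078 and 0.128, with 1 call (Mvk) among the enzymes and 3 (Scap, Lpl and Apoe) among the others. Whether the enzymes differ from the other group was not tested, since these lists are described here by counts and medians only.

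Among the regulators all 5 were higher in KO in each of the 3 comparisons, by 0.03 to 0.19 in the averaged one. Srebf1 (chromosome 11, 60199089 to 60222581 in GRCm38, minus strand), whose protein drives mainly fatty acid genes, stood at 58.4, 55.5, 55.9, 57.3 and 55.9 CPM in WT_day 1 to 5 and at 72.3, 65.0, 65.6, 67.0 and 58.2 CPM in KO_day 1 to 5. Its levels were 65.1, 68.8, 64.3, 65.6 and 57.2 CPM in WT_night and 72.5, 73.1, 69.8, 78.1 and 65.5 CPM in KO_night. The WT_day libraries lie close together at the bottom, KO_day and WT_night cover nearly the same range, and KO_night is highest, with overlap between KO and WT at each time. Srebf1 rose by 0.19 ± 0.0388 (1.14-fold, adjusted p = 0.0241) in the averaged comparison, and was at 0.21 ± 0.0549 by day (adjusted p = 0.118) and 0.16 ± 0.0549 at night (adjusted p = 0.0554). Without WT_day 2 the averaged change was 0.18 and did not pass (adjusted p = 0.0527).

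Scap (chromosome 9, 110333288 to 110384950, plus strand) encodes the escort that senses cholesterol and moves SREBPs to the Golgi. It stood at 51.1, 54.4, 47.7, 53.2 and 49.4 CPM in WT_night 1 to 5 and at 55.5, 55.9, 59.6, 60.6 and 52.1 CPM in KO_night. By day it stood at 49.9, 50.6, 50.4, 52.4 and 50.3 CPM in WT and at 56.2, 49.7, 54.4, 57.6 and 56.3 CPM in KO. In both pairs of groups 4 of 5 KO libraries lie above every WT library, the exceptions being KO_night 5 and KO_day 2. At night Scap rose by 0.15 ± 0.0477 (1.11-fold, adjusted p = 0.0437), and in the averaged comparison it was at 0.13 ± 0.0337 (adjusted p = 0.0506). The night call was lost in 15 of the 20 fits that left out 1 library (adjusted p = 0.0504 to 0.155) and held only without WT_night 2, WT_night 4, KO_day 2, KO_day 4 or KO_night 5.

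Srebf2, whose protein drives mainly the sterol genes, had a change of 0.13 ± 0.0321 in the averaged comparison, just outside the threshold (adjusted p = 0.0505). It stood at 77.1 to 80.6 CPM in WT_night and at 80.9 to 93.6 CPM in KO_night, and these groups do not overlap. At night 2 of 37 members were higher without overlap, Srebf2 and Lpl, where 2.67% of all genes were. Insig1, one of the SREBP retention factors and itself a target of the pathway, was at 0.13 ± 0.0534 (adjusted p = 0.184), and its relative Insig2 at 0.03 ± 0.0367 (adjusted p = 0.648).

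The mevalonate and isoprenoid enzymes run from Acat2, which joins acetyl-CoA, through Hmgcs1, Mvk, Pmvk, Mvd, Idi1 and Fdps to Ggps1, which makes geranylgeranyl diphosphate for protein prenylation. In the averaged comparison 5 of these 8 were higher in KO, from -0.08 for Fdps to 0.21 for Mvd, and none passed. Mvk (chromosome 5, 114444269 to 114460591, plus strand), the kinase that phosphorylates mevalonate, stood at 11, 11.8, 11.7, 11.2 and 10.9 CPM in WT_night 1 to 5 and at 11.4, 15.7, 14.5, 13.8 and 11.9 CPM in KO_night 1 to 5. By day it stood at 10.3, 11, 12.2, 11.9 and 12.1 CPM in WT and at 11.6, 11.6, 13.1, 13.6 and 13.7 CPM in KO. At night KO_night 2, 3 and 4 lie clearly above the narrow WT range, while KO_night 1 lies within it and KO_night 5 just above it. Mvk rose at night by 0.25 ± 0.0789 (1.19-fold, adjusted p = 0.0429), and was at 0.15 ± 0.0784 by day (adjusted p = 0.588) and 0.20 ± 0.0556 in the averaged comparison (adjusted p = 0.0698). The night call was lost in 13 of the 20 fits that left out 1 library (adjusted p = 0.0502 to 0.161), the highest being without KO_night 2, and held only without WT_day 1, KO_day 1, 2, 3 or 4, or KO_night 1 or 5. It was also lost when the trend with gene length was removed (adjusted p = 0.0508).

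Of the other mevalonate enzymes, Mvd was at 0.21 ± 0.0674 in the averaged comparison (adjusted p = 0.0905) and at 0.25 ± 0.0958 at night (adjusted p = 0.0868). Hmgcs1, which makes HMG-CoA and holds the element core printed above, was at 0.11 ± 0.0505 (adjusted p = 0.249). Acat2 was at 0.15 ± 0.0523 at night (adjusted p = 0.0605) and at -0.02 ± 0.0521 by day. Pmvk, Idi1 and Ggps1 had changes between -0.02 and 0.04 in the averaged comparison. None of these 6 passed in any of the comparisons of the main fit. By DESeq2 Mvd passed in the averaged comparison (0.21), where 1046 of 22181 genes were called. Mvd also passed there without WT_night 4 or KO_night 5, where 1265 of 22383 and 385 of 22368 genes were called. Acat2 passed at night without KO_night 1, 4 or 5, where 2313 of 22377, 4252 of 22360 and 2514 of 22368 were called. Fdps, with most reads missing, stood at 0.369 to 0.931 CPM, and its averaged change of -0.08 was smaller than its standard error of 0.166.

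Among the 12 enzymes from squalene to cholesterol, 10 were higher in KO in the averaged comparison, from -0.02 to 0.14. None passed at any time in the main fit. At night Nsdhl (-0.14) passed without WT_night 4 and Sc5d (0.13) without KO_night 4. In these fits 4355 of 22383 and 4252 of 22360 genes were called. Dhcr7, the reductase that completes one branch of cholesterol synthesis, had the smallest averaged adjusted p of the 12, with a change of 0.12 ± 0.0407 (1.09-fold, adjusted p = 0.0999). Dhcr7 (chromosome 7, 143823145 to 143848410, plus strand) stood at 11.9, 12.2, 12.3, 13.8 and 13.5 CPM in WT_day and at 14, 13, 14.4, 13.7 and 15.1 CPM in KO_day. It stood at 12.9, 13.4, 12.7, 12.8 and 13 CPM in WT_night and at 13.4, 13.5, 15.4, 14.5 and 12.9 CPM in KO_night. KO libraries overlap WT at each time, and the means of KO_day (14 ± 0.787) and KO_night (13.9 ± 0.976, SD, n = 5) lie within 1 SD of each other.

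Lss, which closes the sterol ring from squalene epoxide, did not overlap between groups by day, at 23.1 to 25.4 CPM in WT_day and 25.8 to 28.8 CPM in KO_day, with a change of 0.16 ± 0.0552 (adjusted p = 0.302). At night its ranges overlapped (24.4 to 28.7 CPM in WT_night, 23.9 to 29.9 CPM in KO_night). Lss and Fasn were the 2 of 37 members that were higher in KO_day without overlap, where 1.48% of all genes were. Hsd17b7, a reductase of the demethylation steps, was at 0.14 ± 0.0594 in the averaged comparison (adjusted p = 0.182). Nsdhl, its partner in those steps, was at -0.11 ± 0.0510 at night (adjusted p = 0.154) and 0.06 ± 0.0505 by day. The remaining enzymes of this group, Fdft1 and Sqle at its entry, Cyp51, Tm7sf2, Lbr, Msmo1, Ebp and Sc5d along it, had averaged changes between -0.00 (Ebp) and 0.10 (Tm7sf2).

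The 4 fatty acid genes comprise Acaca, the carboxylase that makes malonyl-CoA, Fasn, which builds palmitate from it, and the desaturases Scd1 and Scd2. Fasn (chromosome 11, 120805846 to 120824547, minus strand) stood at 209, 191, 210, 208 and 192 CPM in WT_day 1 to 5 and at 261, 222, 243, 249 and 254 CPM in KO_day 1 to 5. At night it stood at 214, 228, 218, 249 and 229 CPM in WT and at 245, 252, 274, 282 and 248 CPM in KO. Every KO_day library lies above every WT_day library, while at night WT_night 4 lies within the KO range. Fasn rose by 0.28 ± 0.0544 by day (1.22-fold, adjusted p = 0.0309), by 0.19 ± 0.0544 at night (1.14-fold, adjusted p = 0.0287) and by 0.24 ± 0.0385 in the averaged comparison (1.18-fold, adjusted p = 0.00367).

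The averaged change of Fasn passed in each of the 20 fits that left out 1 library (0.22 to 0.26) and was lost without WT_night 1, 2 and 3 together (0.20, adjusted p = 0.108). By day the call was lost without WT_day 1, WT_day 2, WT_day 5, WT_night 2, KO_day 3, KO_day 4 or KO_day 5 (adjusted p = 0.0504 to 0.0968), with changes of 0.27 to 0.30. Without the library labelled WT_day 3, Fasn still passed by day at 0.31. At night the call was lost without WT_night 1, WT_night 3, KO_night 2 or KO_night 3 (adjusted p = 0.0644 to 0.0976). Scd2, the main desaturase of brain and myelin, was at 0.13 ± 0.0398 in the averaged comparison (adjusted p = 0.0877), and Scd1 at 0.12 ± 0.0586 (adjusted p = 0.278). Acaca was at 0.05 ± 0.0513 by day (adjusted p = 0.819) and -0.13 ± 0.0513 at night (adjusted p = 0.0919).

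**Figure D2:**
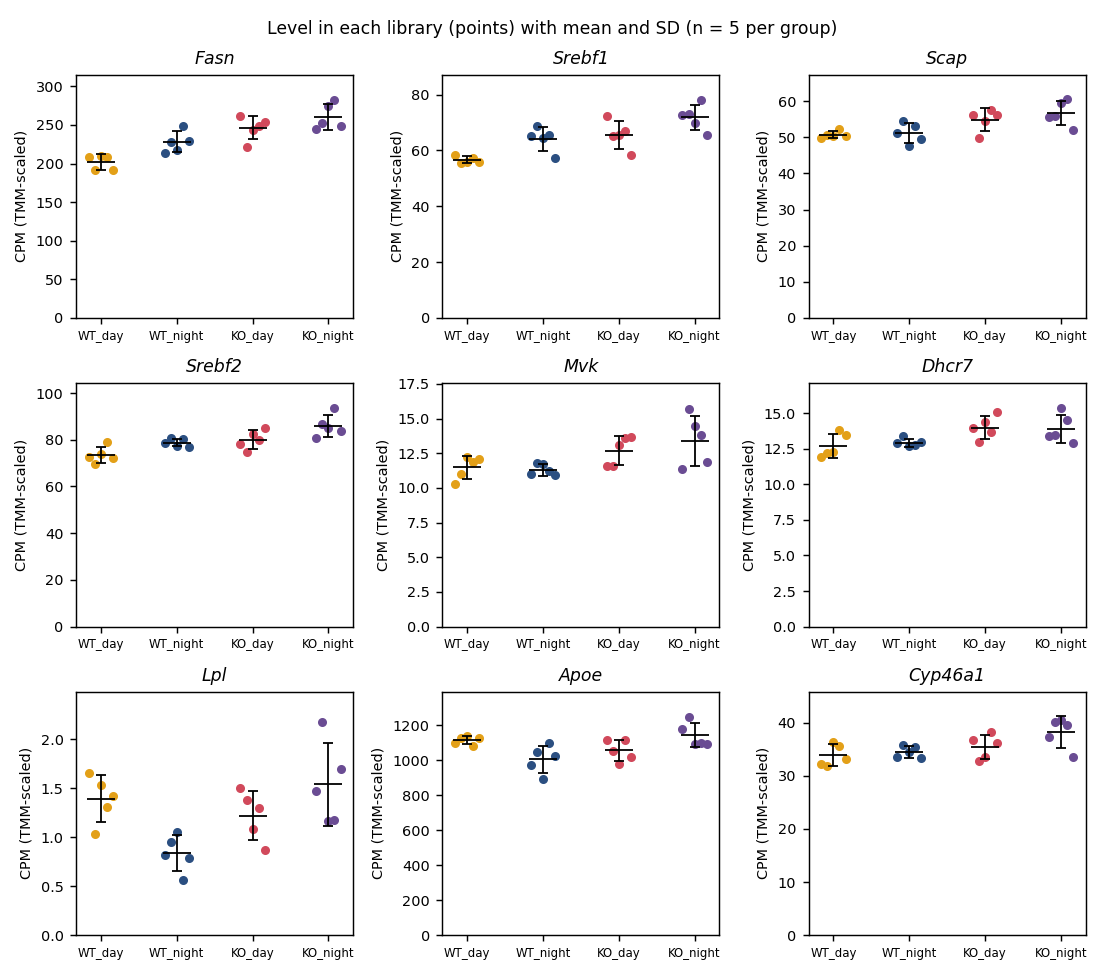
Level in TMM-scaled CPM of 9 genes in each of the 20 libraries (points), with the mean and SD of each group (n = 5), on axes that start at 0. Fasn and Srebf1 are lowest in WT_day and highest in KO_night, and Lpl is lowest in WT_night, where it lies at 0.565 to 1.05 CPM.

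Of the 8 genes of uptake, transport and turnover, Lpl and Apoe rose at night, and 4 of 8 were higher in KO by day against 7 of 8 at night. Lpl (chromosome 8, 68880491 to 68907448, plus strand), the lipase that frees fatty acids from lipoproteins, stood at 0.822, 0.951, 1.05, 0.565 and 0.786 CPM in WT_night 1 to 5 and at 1.47, 2.18, 1.17, 1.18 and 1.70 CPM in KO_night 1 to 5. By day it stood at 1.66, 1.03, 1.53, 1.31 and 1.42 CPM in WT and at 1.50, 1.38, 1.08, 1.30 and 0.867 CPM in KO. The night groups do not overlap, and it is WT_night that is low beside WT_day, KO_day and KO_night. Lpl rose at night by 0.87 ± 0.201 (1.83-fold, adjusted p = 0.0169), and was at -0.19 ± 0.190 by day (adjusted p = 0.816). Its interaction of genotype and time was 1.07 ± 0.277 (adjusted p = 0.0641), and its night against day change was -0.73 ± 0.202 in WT (adjusted p = 0.107) and 0.33 ± 0.189 in KO (adjusted p = 0.358), so none of these passed. The night call was lost without WT_night 1 (adjusted p = 0.0510) or KO_night 2 (0.71, adjusted p = 0.0601). Adipocyte markers, which would mark attached fat, summed to 0.192 to 0.811 CPM in WT_night and 0.442 to 0.949 CPM in KO_night. By day they summed to 0.460 to 0.816 CPM in WT and 0.414 to 0.561 CPM in KO. These sums are nearly as high as the level of Lpl. Only Cidec among these markers was tested, at 0.53 ± 0.279 at night (adjusted p = 0.206) and -0.19 ± 0.271 by day (adjusted p = 0.889). A part of attached fat in the Lpl values was not tested.

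Apoe (chromosome 7, 19696109 to 19699188, minus strand) stood at 970, 1045, 891, 1096 and 1022 CPM in WT_night 1 to 5 and at 1178, 1247, 1094, 1098 and 1094 CPM in KO_night. By day it stood at 1100, 1126, 1135, 1078 and 1126 CPM in WT and at 1116, 1050, 980, 1117 and 1016 CPM in KO. At night WT_night 4 lies within the KO range and the other WT libraries lie below it, whereas by day the groups overlap and the mean of KO (1056 ± 60.5) is below that of WT (1113 ± 23.6). Apoe rose at night by 0.18 ± 0.0559 (1.14-fold, adjusted p = 0.0358), and was at -0.08 ± 0.0559 by day (adjusted p = 0.734) with an interaction of 0.26 ± 0.0791 (adjusted p = 0.0855). The night call was lost without WT_night 1, WT_night 3, WT_night 5, KO_night 1, KO_night 2 or KO_night 3 (adjusted p = 0.0539 to 0.134).

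Cyp46a1, the neuronal hydroxylase whose product lets cholesterol leave the brain, had the smallest adjusted p of the transport genes in the averaged comparison, at 0.11 ± 0.0388 (1.08-fold, adjusted p = 0.128). Cyp46a1 (chromosome 12, 108334381 to 108362234, plus strand) stood at 33.6, 35.8, 34.5, 35.4 and 33.4 CPM in WT_night and at 37.3, 40.1, 40.6, 39.7 and 33.5 CPM in KO_night. By day it stood at 32.2, 31.8, 36.4, 35.7 and 33.2 CPM in WT and at 36.7, 32.9, 33.6, 38.3 and 36.2 CPM in KO. Only KO_night 5 keeps the night groups from separating, and by day the groups overlap widely. Stard4, which carries cholesterol between membranes, was at 0.15 ± 0.0712 (adjusted p = 0.232). Npc1 and Npc2, which release cholesterol from lysosomes, were at 0.06 ± 0.0323 and 0.08 ± 0.0462. Abca1, the exporter that loads lipid onto apolipoproteins, was at -0.00 ± 0.0368, and Soat1, which esterifies cholesterol for storage, at -0.01 ± 0.0329. None of these 5 passed at any time in the main fit. Npc2 passed at night (0.21) without WT_night 4 or KO_night 5, where 4355 of 22383 and 2514 of 22368 genes were called.

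All 5 night calls depended on which libraries and time labels entered. With groups taken from the time field in place of the title, Mvk was at 0.10, Apoe at 0.10, Lpl at 0.77, Scap at 0.09 and Fasn at 0.13, each with an adjusted p of 0.918. In the 14 libraries on whose time both labels agree, the adjusted p was 0.486 for Mvk, 0.595 for Apoe, 0.322 for Lpl, 0.473 for Scap and 0.341 for Fasn. Without WT_night 1, 2 and 3 it was 0.432, 0.599, 0.308, 0.460 and 0.572, with changes of 0.28, 0.11, 1.18, 0.14 and 0.12. Agreeing labels leave only KO_night 4 and 5 in their group, and the last setting leaves only WT_night 4 and 5. Over all genes, 4 of 22407, 6 of 22820 and 11 of 22969 were called at night in these 3 settings, beside 2649 of 22181 in the main fit. The loss of the night calls was thus not particular to the members. In a fit of the 2 night groups alone Lpl passed, while the adjusted p was 0.102 for Mvk, 0.136 for Apoe, 0.137 for Scap and 0.0831 for Fasn, and without the low-count filter Scap did not pass (0.0672). The directions were kept in each of these fits. Srebf1 was at 0.18 (adjusted p = 0.103), 0.17 (0.181) and 0.22 (0.0862) in the averaged comparison under the same 3 settings, and did not pass. Fasn in the averaged comparison passed with the time field (0.22) and with agreeing labels (0.25). Without the library labelled WT_day 3, the members called were 2 averaged (Srebf1 and Fasn), 1 by day (Fasn) and 3 at night (Apoe, Lpl and Fasn). Of all 22374 genes tested in that fit, 194, 27 and 2315 were called in the same comparisons.

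**Figure D3:**
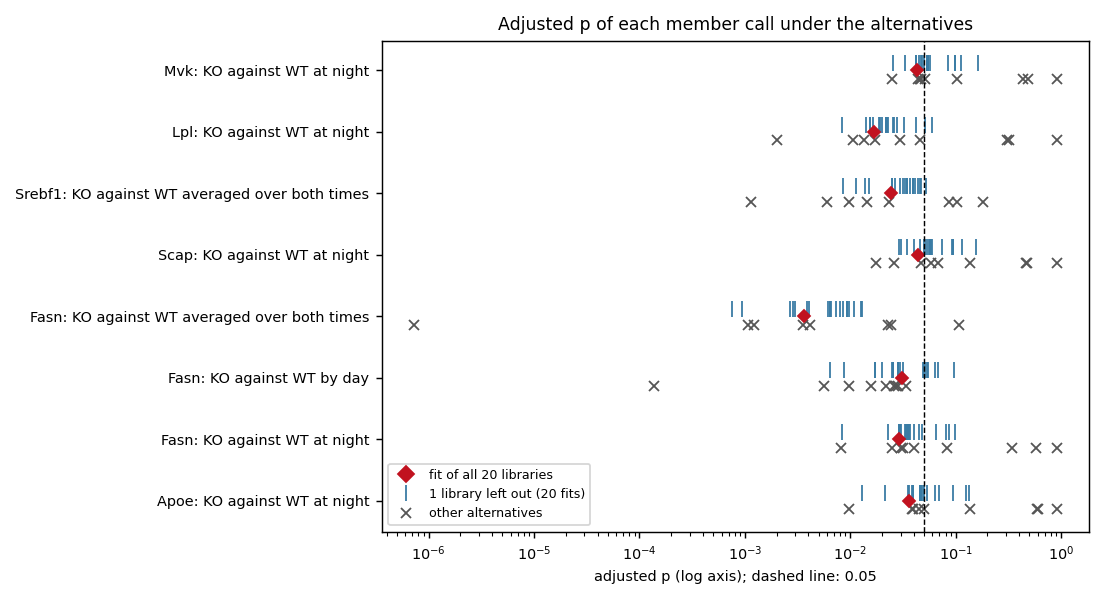
Adjusted p (log axis) of each call among the 37 genes: the fit of all 20 libraries (diamonds), the 20 fits that each left out 1 library (ticks) and the other alternatives (crosses), with the threshold of 0.05 as a dashed line. The ticks of Fasn in the averaged comparison all lie left of the line. Those of every other call fall on both sides, with most of those of Mvk and Scap on the right.

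Between night and day none of the 37 members passed, in WT, in KO or averaged over both genotypes, where 0.275%, 0.0721% and 0.117% of all genes were called. At an unadjusted p under 0.05 there were 10 members in WT, 4 in KO and 4 averaged, beside 15.9%, 17.7% and 11.8% of all genes. DESeq2 called 3 (Lpl, Srebf1 and Fasn) in WT, 0 in KO and 1 (Srebf1) averaged, beside 1.84%, 2.66% and 0.965% of all genes. Srebf1 was at 0.16 ± 0.0388 at night in the averaged comparison (adjusted p = 0.0958), and Fasn at 0.17 ± 0.0545 in WT (adjusted p = 0.148), where its groups did not overlap, as 2.52% of all genes were higher at night without overlap. The interaction of genotype and time had no call among the members and none among all genes (0%) by edgeR, with 6 members at an unadjusted p under 0.05 (22.1% of all genes) and 1 (Apoe) by DESeq2 (5.48% of all genes). Without WT_night 4 or KO_night 4 the interactions of Apoe and Lpl passed, where 1555 of 22383 and 1511 of 22360 genes were called. Without KO_day 1 or KO_day 4 that of Lpl passed, where 474 of 22381 and 717 of 22374 genes were called. These interaction calls were thus not particular to the members. In WT 1 of 8 mevalonate and isoprenoid enzymes was higher at night (median -0.023), and that was Fdps, whose counts lack most of its reads. In KO 6 of 8 were higher (median 0.033), with no call in either genotype. The enzymes from squalene to cholesterol did not share this, with 8 of 12 higher in WT and 6 of 12 in KO. Of all genes, 51.4% were higher at night in WT and 50.5% in KO.

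The pathway's other genes were read from 3 lists that hold 55 genes, of which 53 were tested. In the averaged comparison 4 of them rose and none fell, among them Abca2, Lrp1 and Fads1, where 1.32% of all genes were called. Lrp1, a receptor for lipoproteins that hold ApoE, rose by 0.32 ± 0.0625 by day (adjusted p = 0.0395) and by 0.21 ± 0.0442 averaged (adjusted p = 0.0288). Fads1, which introduces a double bond into polyunsaturated fatty acids, rose by 0.15 ± 0.0369 averaged (adjusted p = 0.0389). By day 2 of the 53 rose, Lrp1 among them, where 0.113% of all genes were called. The averaged calls of Abca2, Lrp1 and Fads1 were lost with groups by the time field (adjusted p = 0.1 to 0.117) and without WT_night 1, 2 and 3 (adjusted p = 0.207 to 0.344). Leaving out 1 library ended that of Fads1 in 13 of 20 fits (adjusted p = 0.0526 to 0.0873) and the day call of Lrp1 in 8 (adjusted p = 0.0524 to 0.118). The averaged call of Lrp1 was lost in 4 (adjusted p = 0.0511 to 0.0652) and that of Abca2 in 1 (adjusted p = 0.0505).

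At night 5 of the 53 rose and 2 fell, which is near the 11.9% of all genes called at night. Fads6, of the fatty acid desaturase family, rose by 0.29 ± 0.0577 (1.22-fold, adjusted p = 0.0103). Its WT_night libraries lay at 22.7 to 25.5 CPM and its KO_night libraries at 25.2 to 31.9 CPM. Abca2, a lipid transporter of oligodendrocytes, rose by 0.20 ± 0.0512 (adjusted p = 0.0231), and by 0.18 ± 0.0362 averaged (adjusted p = 0.0209). Acly, which supplies acetyl-CoA in the cytosol, rose by 0.15 ± 0.0429 (adjusted p = 0.0296). Abcg1 (0.12) also rose, and Elovl6 (-0.13) and Cyp7b1 (-0.22) were those that fell, and these 3 are named after their values were seen. Between night and day Fabp7, a fatty acid binding protein of glia, fell by 0.72 ± 0.137 on the log2 scale in WT (adjusted p = 0.0262) and by 0.60 ± 0.0966 averaged over both genotypes (adjusted p = 0.00643). Its levels were 20.1 to 23.2 CPM in WT_day and 10.6 to 16.7 CPM in WT_night. The night calls of Fads6, Abca2 and Acly were lost with the time field, with agreeing labels alone and without WT_night 1, 2 and 3. In these settings 4, 6 and 11 of all genes were called at night. Fads6 passed in each of the 20 fits that left out 1 library. The night call of Abca2 was lost in 4 of them (adjusted p = 0.0534 to 0.0776) and that of Acly in 6 (adjusted p = 0.0586 to 0.0980). Abca2 (adjusted p = 0.0654) and Acly (adjusted p = 0.113) also did not pass in the fit of the 2 night groups alone. The fall of Fabp7 in WT was lost without each of WT_day 1, 3, 4 and 5 and WT_night 1, 2 and 3 (adjusted p = 0.0501 to 0.0888). With the time field it was at -0.53 in WT (adjusted p = 0.415) and -0.35 averaged (adjusted p = 0.302), and without WT_night 1, 2 and 3 together at -0.40 in WT (adjusted p = 0.376), and none of these passed.

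Markers of myelinating cells moved in the same direction as the members. All 8 oligodendrocyte markers were higher in KO in the averaged comparison (median 0.14) and at night (median 0.20), and at night Cldn11 (0.27), Mag (0.32) and Cnp (0.25) rose. Their summed level was 2207 to 2425 CPM in WT_day, 2188 to 2549 CPM in KO_day, 2048 to 2536 CPM in WT_night and 2217 to 2962 CPM in KO_night. Precursor markers were higher in 6 of 6 at night, where Neu4 and Cspg4 rose, and astrocyte markers in 7 of 8, where Aldh1l1 rose (0.22). Summed astrocyte markers were at 2075 to 2315 CPM in WT_night and 2159 to 2463 CPM in KO_night. Microglial markers were higher in 6 of 7 at night, where P2ry12 fell (-0.18), neuron markers in 5 of 7, where Gad1 (0.21) and Nefl (0.28) rose, and endothelial markers in 2 of 6. Among summed markers of the dissected region and its surroundings, only those of hypothalamus separated by genotype at night, and few of the single markers passed. Summed hypothalamic markers were at 699 to 915 CPM in WT_night and 954 to 1165 CPM in KO_night, which do not overlap, and at 865 to 1023 CPM in WT_day and 900 to 1103 CPM in KO_day. Thalamic markers summed to 395 to 669 CPM in WT_night and 323 to 444 CPM in KO_night, and those of meninges and fibroblasts to 56.6 to 88.6 CPM and 37.9 to 59.5 CPM. These ranges overlap. So do those of cortex and hippocampus (7.91 to 12.6 CPM in WT_night, 7.89 to 13.1 CPM in KO_night) and striatum (62.3 to 66.4 CPM and 54.8 to 69.6 CPM). None of these sums was tested. Gene by gene, 8 of 9 hypothalamic markers were higher in KO at night, but only Oxt (0.76) and Avp (0.45) passed, and Sim1 was at -0.13. Of the thalamic markers 2 of 5 were higher, among them Prkcd (0.46), and only Rora (-0.45) passed. Of the markers of meninges and fibroblasts 0 of 5 were higher, and none passed. Those of cortex and hippocampus were higher in 3 of 5 and those of striatum in 4 of 5, with no call. The part of these cells and regions in the results on the lipid genes was not tested.

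Within KO_night the same 2 libraries led both sets. The mean log2 level of the 19 synthesis enzymes without Fdps, relative to the mean of all 20 libraries, was 0.17 in KO_night 2 and 0.138 in KO_night 3, and -0.048, -0.039 and 0.003 in KO_night 1, 4 and 5. The 8 oligodendrocyte markers were at 0.221 and 0.325 in KO_night 2 and 3, and at -0.068, -0.017 and 0.148 in KO_night 1, 4 and 5. In the other groups the enzyme mean ran from -0.11 (WT_night 3) to 0.074 (KO_day 5). The regulators were at 0.161 in KO_night 2, 0.144 in KO_night 3 and 0.111 in KO_night 4, and no WT_day library exceeded -0.069. The enzymes of KO_night thus spread more (SD 0.102) than those of WT_day (SD 0.0184).

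**Figure D4:**
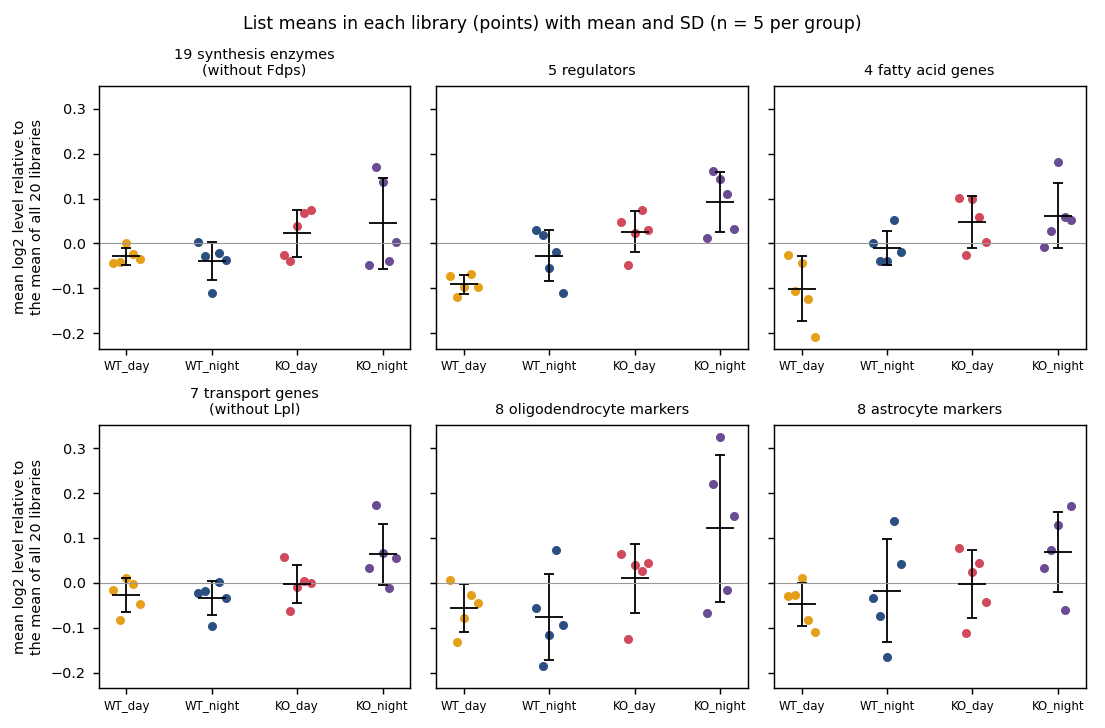
Mean log2 level of each gene list in each library (points), relative to the mean of all 20 libraries, with the mean and SD of each group (n = 5). KO_night 2 and 3 are the high points of KO_night for the synthesis enzymes and the oligodendrocyte markers, and the regulators are lowest in WT_day.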

How the data were processed

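Per the submitters' processing notes, HISAT2 and featureCounts were used on build mm10, and the authors deposited unnormalized counts of reads per gene. Versions, annotation and strand setting are not given in the sources used here. The table of WT_night 3 has another layout than the others and holds the same kind of counts as deposited.

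Symbols, positions and lengths came from GENCODE M21 (53706 identifiers matched), promoters from RefSeq. Of protein-coding genes inside a same-strand gene 98.2% had 0 counts, against 5.12% inside an opposite-strand gene, so counts were separated by strand and reads shared by same-strand genes were dropped. Genes were fitted with edgeR 4.0.16 in R 4.3.3 (TMM factors 0.945 to 1.08, filterByExpr minimum count 10, 1 fit of 4 group means, quasi-likelihood F-test, two-sided). All 40 pairs of libraries within groups differed beyond counting error. The script was tested on simulated data. DESeq2 1.42.0 and the settings of the closing section were alternatives. The members and lists were chosen with earlier results of these data known, although the rule for members reads no value. Described in full are members that passed in any comparison and, per role, the one with the smallest averaged adjusted p, and other pathway genes up to 4 per comparison. Some genes of the wider pathway are counted but not reported singly here.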

Additional observations from a re-analysis of the deposited data

Results flagged for a closer look

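In 148 groups of 5 libraries (37 genes in 4 groups), 3 libraries stood far from the other 4 of their group by Dixon's test, which chance alone does in about 1 group in 20. Pmvk, the phosphomevalonate kinase, was at 23.5 CPM in WT_night 2, where the others were at 20.7 to 21.5. Ebp, a sterol isomerase, was at 8.93 CPM in WT_day 1, where the others were at 9.72 to 9.95. Lbr, a sterol reductase that also anchors chromatin at the nuclear envelope, was at 23.5 CPM in KO_night 3, where the others were at 20.5 to 20.9.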

How the results depend on the processing

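The members called in the averaged, day and night comparisons of genotype (2, 1 and 5) became 4, 1 and 5 with DESeq2 size factors, 7, 2 and 7 with DESeq2, 6, 1 and 7 with the trend of gene length removed, 1, 1 and 0 with groups by the time field, 1, 1 and 0 with agreeing time labels alone, and 0, 1 and 0 without WT_night 1, 2 and 3. Without the low-count filter they were 2, 1 and 4, and in a fit of the 2 groups alone 1 by day and 1 at night. Counted over all genes, DESeq2 size factors gave 298, 32 and 2624 calls, and DESeq2 gave 1046, 190 and 3529. With the trend of gene length removed there were 680, 48 and 2013. The time field gave 30, 149 and 4, and agreeing labels gave 58, 89 and 6. Without WT_night 1, 2 and 3 there were 19, 27 and 11. Without the filter there were 358, 60 and 2153, and in a fit of the 2 groups alone 127 by day and 556 at night. DESeq2 called 1 member between night and day averaged, 3 in WT and 1 for the interaction, where edgeR called 0. Leaving out 1 library gave 1 to 7 members averaged, 0 to 1 by day, 0 to 10 at night, 0 to 2 for the interaction and 0 in the comparisons of time. The 7 averaged came without WT_night 4, where 1265 of 22383 genes were called. The 10 at night came without KO_night 5, where 2514 of 22368 genes were called. Replicate numbers do not pair the libraries (correlations of -0.23 to 0.41 in 30 pairs of the same number, 3 over 0.1, and 4 libraries correlated best with their own number). With the replicate block the members called were 2, 1 and 4, and 0 in the others. At night Srebf1 passed with the block, and Scap (adjusted p = 0.0584) and Apoe, just above the threshold, did not. Of all 22181 genes, 217, 48 and 1690 were called with the block. Over all genes, the counts of 293, 25 and 2649 ran from 19 to 1265, 15 to 190 and 4 to 4355 over all alternatives, those of night against day (26 averaged, 61 in WT, 16 in KO) from 1 to 214, 0 to 409 and 0 to 591, and that of the interaction from 0 to 1555. At night 12 to 18 of the 20 enzymes were higher in KO under the alternatives that leave out no single library, and their median fell to 0.005 with the time field. The cause of these shifts was not tested. Lpl is limited by depth, with under 100 counts in every library.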
